A study of Danio rerio with 3 samples.

Results

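The genes described here are the heat shock proteins, the DnaJ co-chaperones and the Bag proteins of the larval zebrafish retina. Members were all gene symbols in the deposited matrices that begin with hsp, dnaj or bag followed by a digit and that held at least 20 unique molecular identifiers (UMIs, each standing for 1 captured transcript) over the 3 libraries together. Of 91 matching symbols among 27773 genes, 82 met this limit. The members just inside it were hspa12b and dnajb9b with 27 UMIs each, and just outside were dnajb9a with 19 and hspb7 with 17. The other symbols left out were hspb9 (14 UMIs), dnajb5 (12), hspb11 (6), hspb3 (2) and dnajc5b (1), and hspb2 and dnajc22, both at 0. The pattern also took in hspg2, which codes for perlecan, a basement membrane proteoglycan, and hspbap1, neither of which is a heat shock protein. Levels are given as CPM, the UMIs of a gene per 1000000 UMIs of the same group of cells. UMIs come from the 3′ end of transcripts and were not divided by gene length.

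Hsp70 proteins bind exposed hydrophobic stretches of unfolded proteins in a cycle driven by ATP. DnaJ proteins, also called J-domain proteins, hand clients to Hsp70 and start its ATP hydrolysis, while Hsp110, Bag and HspBP1 proteins release the nucleotide and with it the client. Hsp90 takes over clients that need a late folding step, small heat shock proteins hold unfolded chains, and the Hsp60 and Hsp10 chaperonin works in mitochondria. Many of these genes have a constant supply in every cell, whereas others, above all the inducible Hsp70 genes, are switched on by the transcription factor Hsf1 under heat or protein damage. Warm enzymatic digestion of tissue is itself known to raise heat shock and immediate early genes, and immediate early genes are therefore given beside the members.

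The study asked how Müller glia, the glia from which the zebrafish retina regenerates neurons, respond when 1 cone subtype is removed. All larvae carried the reporters her4.1:dRFP and gfap:GFP, to which the transgene lws2:nfsb-mCherry was added for Lws2-ablation, sws2:nfsb-mCherry for Sws2-ablation and none for the no ablation control, and each line gave 1 single-cell library. In the ablated lines a cone opsin promoter (lws2 for red cones, sws2 for blue cones) drives nfsb, a bacterial nitroreductase that turns metronidazole into a toxin, and gfap:GFP persists in cells that derive from glia. All larvae, the control included, were held in 10 mM metronidazole for 48 h from 6 days post-fertilization (dpf) and taken at 9 dpf, 3 days post-injury. Retinae were digested in papain at 37 °C for 15 min, and Gfap-positive cells, that is those with the gfap:GFP reporter, were sorted before capture. The number of larvae per library, the limits of the sort gate and which of the kit versions 2 and 3 each library used are not given in the sources used here. With 1 library per condition the effects of ablation, larvae, kit and preparation cannot be told apart.

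After the filters of the study 10430 cells of Lws2-ablation, 7851 of Sws2-ablation and 8190 of the no ablation control remained, with medians of 5905, 5034 and 4390.5 UMIs. Transcripts of the GFP transgene were found in 51.1% of cells of Lws2-ablation and 68.1% of cells of the control but in 0.509% of cells of the library with the label Sws2-ablation, which goes against its genotype. The genotype of that library is therefore known from its label alone, and class comparisons are also given without it. Between 17 and 29 cell barcodes were shared by any pair of libraries. Scrublet, which scores likeness to simulated doublets, marked at most 1 cell per library with its automatic limit and so did not work; doublets stayed in. Cells were put into 6 classes by their share of marker UMIs and number of distinct markers: resting glia (3010, 2446 and 5721 cells in Lws2-ablation, Sws2-ablation and control), cycling progenitors (1082, 617 and 182), neurogenic precursors (234, 187 and 98), photoreceptor lineage (666, 385 and 302), bipolar cells (528, 407 and 296) and amacrine cells (347, 40 and 100). Cells that met several gates (996, 493 and 410) or none (3567, 3276 and 1081) were left out of class comparisons. Median levels of microglia and blood, vessel, pigment and lens markers were 0 in every class, while resting glia held medians of 3.11, 2.46 and 3.59 ganglion cell marker UMIs and 0.953, 0 and 1.83 horizontal cell marker UMIs per 10000 UMIs in Lws2-ablation, Sws2-ablation and control, and 0.58 of oligodendrocyte markers in Lws2-ablation.

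The members held 4.61% of all UMIs of the kept cells in Lws2-ablation and 3.39% under the label Sws2-ablation, against 6.24% in the no ablation control. A small set carried nearly all of it: the 4 inducible Hsp70 genes hsp70.1, hsp70.2, hsp70.3 and hsp70l, the Hsp90 genes hsp90aa1.2 and hsp90ab1, the constitutive hspa8 and the J-domain gene dnajb1b together made up 94.0%, 93.9% and 95.6% of member UMIs. By role, inducible Hsp70 took 64.8% of member UMIs over the 3 libraries, Hsp90 (4 members) 19.2%, the other 7 Hsp70 genes 6.59% and DnaJ B (12 members) 5.10%. Most members were thus thinly expressed beside these genes. DnaJ C, with 30 members the most numerous group, took 1.06%, the 2 chaperonin genes 0.911%, the 4 small heat shock proteins 0.854%, the 4 Hsp110 genes 0.533%, the 5 DnaJ A genes 0.503% and the 7 Bag genes 0.414%. At least 10 CPM was reached by 49 members in Lws2-ablation, 46 in Sws2-ablation and 49 in the control, and 6 stayed under 1 CPM in each.

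The inducible Hsp70 genes were expressed in all 6 classes and took the largest share in the resting glia of each library. Of all UMIs of resting glia, 4.55% came from these 4 genes in Lws2-ablation and 3.75% in Sws2-ablation, against 5.36% in the control. Cycling progenitors held 1.70%, 1.22% and 1.97% in the same libraries, neurogenic precursors 1.60%, 1.51% and 2.67%, and the photoreceptor lineage 2.46%, 1.84% and 3.21%. Bipolar cells came closest to resting glia with 3.81%, 2.97% and 3.67%, and amacrine cells had 2.64%, 1.98% and 3.16%. Every one of the 15 library and class values thus lay below the resting glia of its own library, and in all classes but bipolar cells the control held the highest share and the library labelled Sws2-ablation the lowest. Immediate early genes such as fosab, jun and egr1, transcription factors switched on within minutes of a stimulus, were ordered alike only in part. They took 0.95%, 0.810% and 1.07% of UMIs in cycling progenitors and 0.736%, 0.751% and 0.880% in bipolar cells, against 3.70%, 3.11% and 4.22% in resting glia. Bipolar cells thus came closest to resting glia in summed inducible Hsp70 but not in immediate early genes. In the control their median per cell was 2.95%, against 5.15% in resting glia and 2.99% in the photoreceptor lineage. Whether either set was raised during preparation was not tested.

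**Figure D1:**
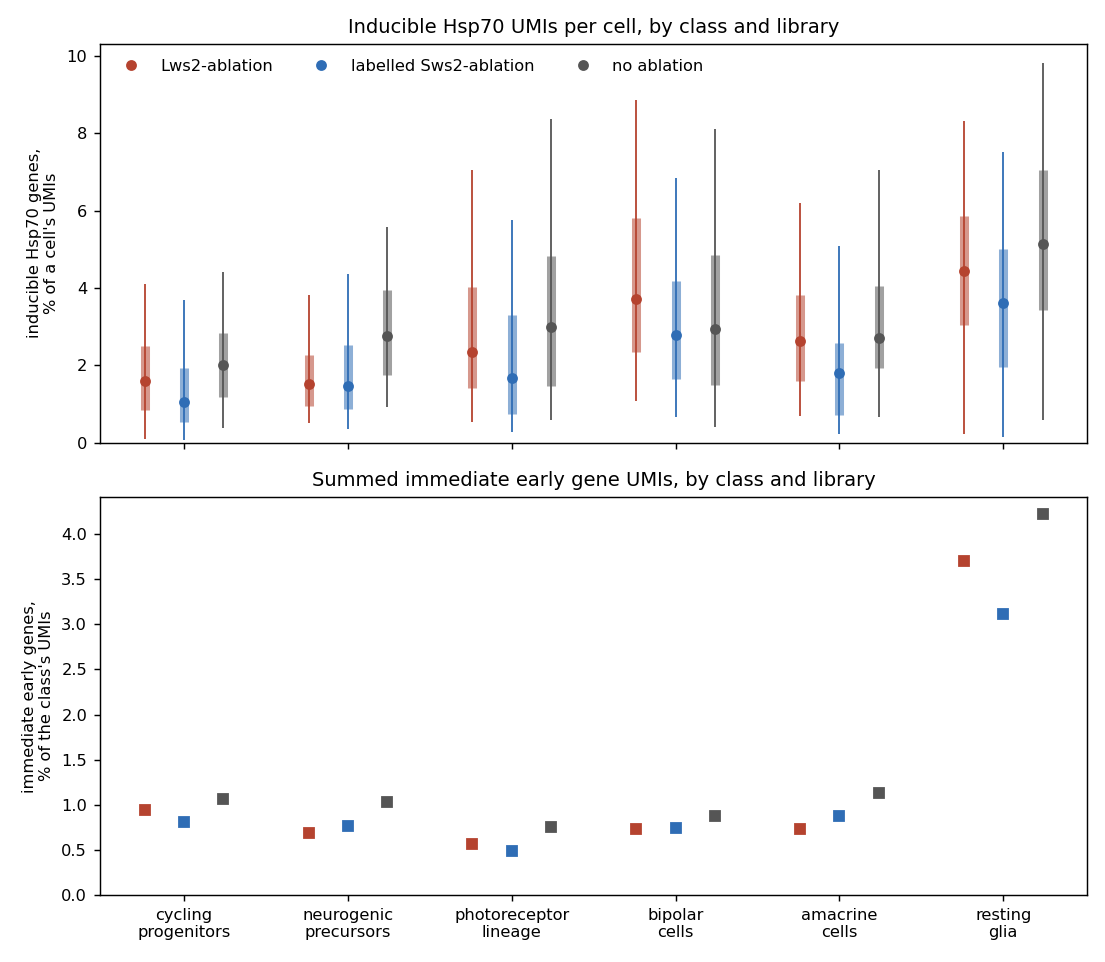
Top, share of each cell's UMIs from the 4 inducible Hsp70 genes by class and library, in percent (points, median; thick bars, 25th to 75th percentile; thin bars, 5th to 95th percentile over cells). Bottom, share of the UMIs of each class from the immediate early gene list, in percent. Medians for inducible Hsp70 in resting glia lie at 4.45%, 3.60% and 5.15% in Lws2-ablation, Sws2-ablation and control, above those of cycling progenitors at 1.60%, 1.04% and 2.0%.

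Nearly every cell held inducible Hsp70 transcripts, and no small subset held most of them. After each cell was thinned at random to 1000 UMIs, leaving out 70, 66 and 139 shallower resting glia and 7, 5 and 2 shallower cycling progenitors, at least 1 inducible Hsp70 UMI was seen in 96.5% (95% exact binomial interval 95.2 to 97.5), 93.1% (90.8 to 95) and 98.9% (96.0 to 99.9) of cycling progenitors of Lws2-ablation, Sws2-ablation and control, against 98.5% (98.0 to 98.9), 97.8% (97.1 to 98.3) and 99.6% (99.4 to 99.7) of resting glia. Without thinning the shares were 100.0%, 99.8% and 100.0% of cycling progenitors and 99.97%, 99.4% and 99.9% of resting glia. A limit of at least 10 UMIs, added after the data were seen, separated the classes more widely, at 70.4%, 52.61% and 79.4% of cycling progenitors against 89.3%, 83.0% and 93.4% of resting glia. The 5% of resting glia richest in these transcripts held 11.0%, 12.4% and 10.8% of the inducible Hsp70 UMIs after thinning. In its uninjured library the study set aside a cluster high in genes such as hsp90aa1.2 and hsp70.3, whose enriched terms it related to a stress response. The gates used here did not set such cells aside. Free RNA in the droplets also gives UMIs, and no class that lacks these genes was at hand to measure it. Summed markers of resting glia, a rough guide to such carry-over, stood at 1259, 743 and 2848 CPM in bipolar cells against 27822, 22309 and 35636 CPM in resting glia. The same markers set the gate of resting glia, and cells past several gates were left out, so this gap is in part fixed by the gates. The part of free RNA in the inducible Hsp70 counts outside glia was not tested.

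The 4 inducible genes did not keep 1 ratio across classes. Of the inducible Hsp70 UMIs of cycling progenitors hsp70l held 27.9%, 39.9% and 29.4% in Lws2-ablation, Sws2-ablation and control, against 40.1%, 52.0% and 38.1% in resting glia. The reverse was seen for hsp70.3, with 30.2%, 24.7% and 30.5% in cycling progenitors against 18.9%, 14.3% and 18.2% in resting glia. The library labelled Sws2-ablation stood apart in that hsp70l took its largest share there in each of the 6 classes. These genes are close copies of each other, so the division of reads among them is uncertain and their sum is the firmer value.

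To ask which members differ between classes on average over the 3 libraries, UMIs were summed per library and class. The 18 sums were fitted with edgeR's quasi-likelihood test, with library as a block. Benjamini-Hochberg adjustment ran over all 10591 genes that passed its filter on low counts. A call does not require the same direction in each library. A gene was called at an adjusted p under 0.05. Each class was set against resting glia on the log2 scale after TMM normalization, which equalizes the bulk of genes between sums, so these differences are not the plain ratios of the CPM values. Of the 82 members, 63 passed the filter. In cycling progenitors 16 were called higher and 25 lower, where the background over all genes was 28.2% higher and 38.6% lower. In neurogenic precursors 6 were higher and 26 lower (background 18.2% and 29.3%), in the photoreceptor lineage 10 and 25 (24.5% and 29.4%), in bipolar cells 8 and 28 (22.7% and 29.8%) and in amacrine cells 12 and 28 (22.5% and 29.7%). The median log2 difference of the members was -0.23, -0.39, -0.38, -0.48 and -0.55 in these 5 classes in that order, beside -0.24, -0.26, -0.07, -0.14 and -0.16 over all genes tested. After TMM normalization, cycling progenitors differed little from the background as a list. In the other classes more members than genes at large were lower on that scale. Plain summed totals in place of TMM moved the median of all genes to -0.51 in cycling progenitors, 0.20 in bipolar cells and 0.36 in amacrine cells, with 12 members higher and 30 lower, 14 and 21, and 17 and 19 in these classes. No called member changed sign under it. The share of all genes called on plain totals is not given here, so the member counts on them stand without a background.

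**Figure D2:**
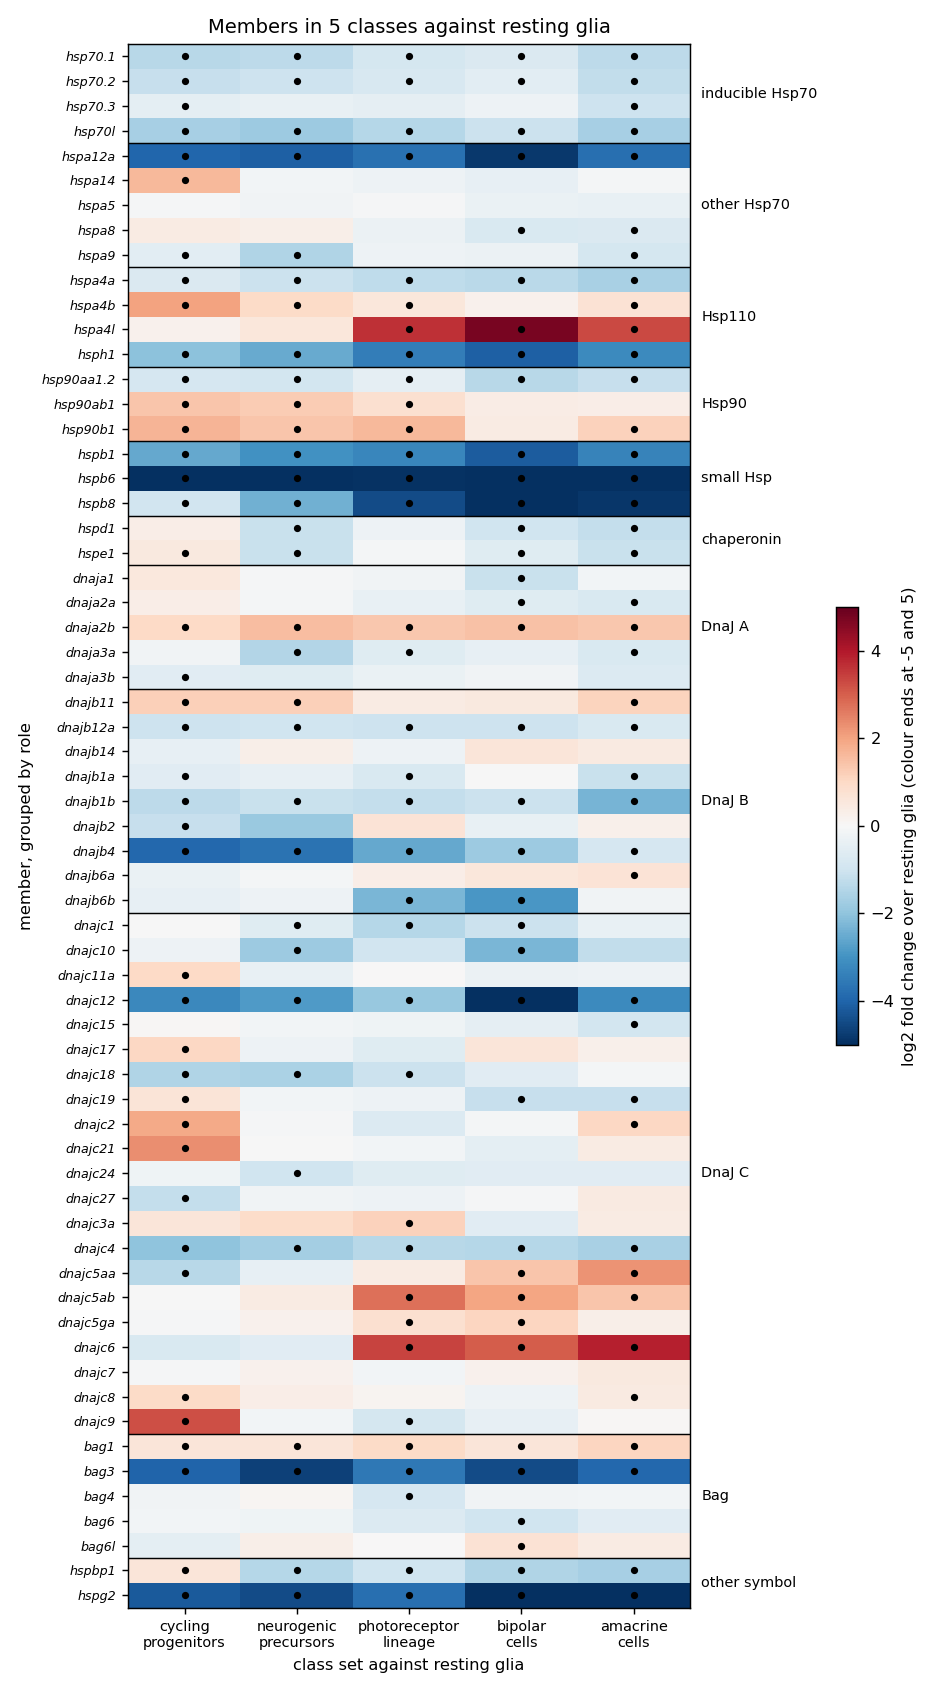
Log2 difference of each of 63 members in 5 classes over resting glia (colour, ends at 5 in both directions; dot, called at an adjusted p under 0.05), members ordered by role. Blue runs through the tested small heat shock genes, hsp70l, bag3 and hspa12a in all 5 classes, while red marks dnajc9, dnajc21 and hspa4b in the cycling column and hspa4l and dnajc6 in the columns of neurons. Colours of hspb6, hspg2 and dnajc12 where 3 or fewer UMIs were seen rest on the fitted value and are no bound.

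Of the 63 members tested, 17 were called lower in all 5 classes and 2 higher in all 5, where the background over all genes was 14.7% and 3.74%. The members lower in all 5 classes than in resting glia were hsp70.1, hsp70.2 and hsp70l, the distant Hsp70 relative hspa12a, the Hsp110 genes hspa4a and hsph1, hsp90aa1.2, the small heat shock genes hspb1, hspb6 and hspb8, the J-domain genes dnajb1b, dnajb4, dnajb12a, dnajc4 and dnajc12, bag3 and hspg2. These calls rest on the fit after TMM, and in plain shares of UMIs not every library was lower. In the control hspb8 had 35.03 CPM in cycling progenitors, against 22.0 CPM in resting glia. In control amacrine cells dnajb4, dnajb12a and dnajc4 held 12, 12 and 13 of 339550 UMIs. Resting glia of the control held 810, 983 and 1023 of 28008047 UMIs, which is no higher a share for any of them. Called higher in all 5 were dnaja2b and bag1. Another 5 (hspe1, dnajc19, dnajc5aa, dnajc9 and hspbp1) were higher in some classes and lower in others, and hspa5, dnajb14 and dnajc7 were called in none. The immediate early gene list moved in the same direction as the 17, with 25 to 28 of its 33 tested genes lower in each class and medians of -1.61 in cycling progenitors and -1.89, -2.82, -2.73 and -2.56 in neurogenic precursors, photoreceptor lineage, bipolar cells and amacrine cells. Classes also differed in depth, at 13944.5, 13437 and 13612.5 UMIs per cycling progenitor and 1793, 1692 and 1228 per bipolar cell in Lws2-ablation, Sws2-ablation and control, against 6263.5, 5346.5 and 4513 per resting glial cell. Their part in the result was not tested.

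Among the inducible Hsp70 genes, whose products refold proteins after acute damage, hsp70l was the most abundant in resting glia and the most reduced elsewhere. It had 4759, 4874 and 5809 CPM in cycling progenitors of Lws2-ablation, Sws2-ablation and control, against 18250, 19476 and 20409 CPM in resting glia. Bipolar cells had 11163, 12474 and 10784 CPM, and neither class overlapped with resting glia. The fitted log2 difference was -1.65 ± 0.21 (SE, adjusted p = 2.77e-07, n = 3 libraries) in cycling progenitors and -1.09 ± 0.21 in bipolar cells, and its 5 calls held without any 1 library. The copy hsp70.3 behaved differently. It had 9790, 6061 and 8896 CPM in bipolar cells, against 8595, 5341 and 9779 CPM in resting glia, and these ranges overlapped. Its log2 difference was -0.26 (adjusted p = 0.289) there and -0.49 ± 0.20 (adjusted p = 0.0344) in cycling progenitors, a call lost without Lws2-ablation (-0.37, adjusted p = 0.333) or without the library labelled Sws2-ablation (-0.36, adjusted p = 0.388). Calls of hsp70.1 and hsp70.2 were firm in cycling progenitors (-1.39 ± 0.21 and -1.14 ± 0.20) and amacrine cells (-1.32 ± 0.21 and -1.23 ± 0.20). In each of the other classes at least hsp70.2 lost its call when a library was left out. In bipolar cells hsp70.1 (-0.73 ± 0.21) was lost without the library labelled Sws2-ablation (adjusted p = 0.0964) and came to -0.45 without the control, while hsp70.2 (-0.52 ± 0.19) was lost without Lws2-ablation, Sws2-ablation or control (adjusted p = 0.17, 0.255 and 0.0684). Without the library labelled Sws2-ablation both were also lost in the photoreceptor lineage (adjusted p = 0.0749 and 0.0798), and hsp70.2 in neurogenic precursors was lost without it (adjusted p = 0.0513) or without Lws2-ablation (adjusted p = 0.0529).

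The small heat shock genes hspb1 (Hsp27), hspb6 (Hsp20) and hspb8 code for holdases that keep unfolded chains from clumping, and bag3 for the protein that joins HspB8 to Hsp70 in chaperone-assisted autophagy. All 4 were called lower than resting glia in each of the 5 classes, hspb8 in cycling progenitors by far less than the others. In the control hspb8 was higher in cycling progenitors (35.03 CPM) than in resting glia (22.0 CPM). For bag3 the levels were 14.2, 18.8 and 21.3 CPM in cycling progenitors of Lws2-ablation, Sws2-ablation and control, against 395, 350 and 290 CPM in resting glia. In all other classes it stayed at or below 41.2 CPM, far under every resting value. Its log2 difference was -3.99 ± 0.30 (adjusted p = 3.11e-11) in cycling progenitors and between -4.66 ± 0.36 and -3.58 ± 0.30 elsewhere, without loss when any 1 library was left out. For hspb1 the levels were 89.4, 62.5 and 185 CPM in cycling progenitors, against 982, 692 and 463 CPM in resting glia. Here the control was the highest library in cycling progenitors and the lowest in resting glia, yet the 2 classes did not overlap. The log2 differences of hspb1 ran from -2.58 ± 0.44 (adjusted p = 2.01e-05) in cycling progenitors to -4.18 ± 0.51 in bipolar cells, and in amacrine cells the value was -3.35 ± 0.51, or -2.18 without Lws2-ablation. Summed markers of resting glia were 1363, 1143 and 1605 CPM in cycling progenitors against 27822, 22309 and 35636 CPM in resting glia, a gap close in size to that of bag3 and wider than that of hspb1. The gap in these markers is in part fixed by the gates, which use them. The part of carried-over glial RNA in these low counts was not tested.

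The gene hspb6 was scarce outside resting glia, while hspb8 varied by class and library. For hspb6, 0.556, 0.447 and 0.394 CPM were found in cycling progenitors of Lws2-ablation, Sws2-ablation and control, against 18.2, 13.6 and 45.2 CPM in resting glia (log2 difference -4.98 ± 0.33). No hspb6 UMI was seen among 2923908 UMIs of neurogenic precursors, which makes it at least 28.5-fold lower than in resting glia when the floor is set at 3 UMIs over the 3 libraries. Bipolar and amacrine cells held 1 UMI each, at ratios of 0.0131 (95% counting interval 0.000333 to 0.0733) and 0.0138 (0.000349 to 0.0769). The gene hspb8 differed most among libraries, with 56.5, 26.8 and 35.03 CPM in cycling progenitors against 207, 103 and 22.0 CPM in resting glia. In the control alone it was not lower in cycling progenitors, and its call there (-0.97 ± 0.38, adjusted p = 0.0292) was lost without Lws2-ablation (-0.42, adjusted p = 0.502) or Sws2-ablation (-0.47, adjusted p = 0.46) and came to -1.45 without the control. It was at or under 8.23 CPM in photoreceptor lineage, bipolar and amacrine cells (-4.48 ± 0.56, -5.29 ± 0.69 and -4.87 ± 0.68). Without Lws2-ablation the neurogenic call (-2.42 ± 0.52) was lost at -1.33 (adjusted p = 0.139), and both remaining amacrine sums were at 0 UMIs. The fourth small heat shock gene, hspb15, stayed at 0.809, 0.558 and 3.38 CPM over all cells and was not tested.

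Nucleotide exchange factors of Hsp70 split by class rather than moving together. Of the 4 Hsp110 genes, hsph1 and hspa4a were highest in resting glia, hspa4b in cycling progenitors and hspa4l in neurons. For hsph1 the levels were 33.6, 35.4 and 17.7 CPM in cycling progenitors of Lws2-ablation, Sws2-ablation and control, against 153, 211 and 85.7 CPM in resting glia (log2 difference -2.05 ± 0.23). The reverse held for its relative hspa4b, with 104, 62.6 and 102 CPM against 29.1, 22.4 and 26.4 CPM (2.02 ± 0.18). For hspa4l, bipolar cells had 68.6, 59.7 and 182 CPM, against 4.09, 1.70 and 2.68 CPM in resting glia (4.76 ± 0.31), and photoreceptor lineage (3.65 ± 0.30) and amacrine cells (3.30 ± 0.35) were higher too. No library overlapped between classes in these 3 comparisons. Smaller calls were less firm: hspa4a in cycling progenitors (-0.72 ± 0.21) was lost without the library labelled Sws2-ablation (-0.45, adjusted p = 0.214), as in neurogenic precursors (-1.06 ± 0.23, or -0.83 with adjusted p = 0.0536 without it, and -0.68 without the control). The hspa4b call in photoreceptor lineage (0.55 ± 0.19) was lost without Lws2-ablation (0.39, adjusted p = 0.231) or Sws2-ablation (0.67, adjusted p = 0.0582), and that in amacrine cells (0.73 ± 0.21) without Lws2-ablation (0.53, adjusted p = 0.222).

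Of the other exchange factors, bag1, a small Bag protein that links Hsp70 to the proteasome, was higher in all 5 classes. It had 43.2, 25.3 and 44.2 CPM in amacrine cells of Lws2-ablation, Sws2-ablation and control, against 15.4, 11.2 and 10.9 CPM in resting glia, with a log2 difference of 1.07. Calls of bag1 in neurogenic precursors (0.59) and bipolar cells (0.59) were lost without Lws2-ablation (adjusted p = 0.178 and 0.15), and the bipolar call also without the library labelled Sws2-ablation (adjusted p = 0.118). HspBP1 (hspbp1), which also releases nucleotide from Hsp70, was higher in cycling progenitors only, at 40.3, 18.2 and 49.2 CPM against 39.8, 19.5 and 22.2 CPM in resting glia. The 2 classes overlapped in CPM, and the log2 difference of 0.62 (adjusted p = 0.0239) was lost without the control (0.41, adjusted p = 0.0731) and was 0.93 or 0.94 without either ablation library. It was lower in the other 4 classes (-1.43, -0.99, -1.50 and -1.68). The neurogenic call was lost without Lws2-ablation or Sws2-ablation (-0.97 and -1.08, adjusted p = 0.146 and 0.0513), the photoreceptor call without Sws2-ablation (-0.74, adjusted p = 0.0963; -1.50 without Lws2-ablation) and the amacrine call without Lws2-ablation (-1.30, adjusted p = 0.117).

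The Hsp90 genes differed in direction. Hsp90-alpha, coded by hsp90aa1.2, stood at 3692, 1840 and 3809 CPM in cycling progenitors of Lws2-ablation, Sws2-ablation and control, against 8817, 4593 and 6417 CPM in resting glia. Hsp90-beta, coded by hsp90ab1, stood at 5554, 4196 and 5983 CPM, against 2875, 2289 and 2093 CPM, and was above the resting level in every library. The log2 differences in cycling progenitors were -0.84 ± 0.18 for hsp90aa1.2 and 1.40 ± 0.23 (adjusted p = 1.33e-05) for hsp90ab1. Without Lws2-ablation or Sws2-ablation the calls of hsp90aa1.2 were lost in cycling progenitors (-0.64 in both, adjusted p = 0.08 and 0.0978), in neurogenic precursors (-0.92 ± 0.18, adjusted p = 0.0724 and 0.0906) and in photoreceptor lineage (-0.45 ± 0.18, adjusted p = 0.342 and 0.391). In bipolar (-1.39 ± 0.19) and amacrine cells (-1.17 ± 0.19) they held. For hsp90ab1 the neurogenic call (1.26 ± 0.23) held, the photoreceptor call (0.79 ± 0.23) was lost without the library labelled Sws2-ablation (0.88, adjusted p = 0.0575), and bipolar and amacrine cells were not called at 0.35 and 0.32. The form of the endoplasmic reticulum (ER), hsp90b1 or Grp94, had 99.2, 45.9 and 61.0 CPM in cycling progenitors, against 52.2, 18.8 and 13.5 CPM in resting glia (1.69 ± 0.26), and was higher in all classes but bipolar cells (0.39). The fourth gene, hsp90aa1.1, which in zebrafish serves myosin folding in muscle, stayed at 3.71, 2.33 and 4.40 CPM over all cells and was not tested.

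Of the constitutive Hsp70 genes hspa8 was by far the most abundant. The cytosolic hspa8 (Hsc70) had 3193, 1921 and 3579 CPM in cycling progenitors of Lws2-ablation, Sws2-ablation and control, against 2900, 1935 and 2854 CPM in resting glia, and was not called (0.42). In bipolar and amacrine cells it was lower (-0.76 ± 0.23 and -0.73 ± 0.23), but both calls were lost without the library labelled Sws2-ablation (adjusted p = 0.11 and 0.0957), and without the control the values were -0.39 and -0.37 (adjusted p = 0.0677 in amacrine cells). The ER form hspa5 (BiP) had 216, 98.6 and 180 CPM in cycling progenitors, against 358, 112 and 184 CPM in resting glia, with log2 differences between -0.38 and -0.06 and no call. The gene hspa14, whose product sits with the J-domain protein of dnajc2 on ribosomes, had 45.2, 38.0 and 54.3 CPM in cycling progenitors against 12.9, 15.4 and 25.9 CPM in resting glia (1.64 ± 0.24) and was called in none of the other 4 classes. The distant relative hspa12a was at 3.40, 2.69 and 6.30 CPM in cycling progenitors, against 68.4, 49.1 and 122 CPM in resting glia (-3.96 ± 0.25), and it was lower by similar amounts in the other classes (-4.81 ± 0.38 to -3.74 ± 0.29).

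The main chaperones of the mitochondrial matrix were lower in neurogenic precursors. The Hsp10 gene hspe1 had 132, 97.9 and 169 CPM in neurogenic precursors, against 295, 299 and 302 CPM in resting glia, with a log2 difference of -1.13, and its Hsp60 partner hspd1 had the same value of -1.13. The hspd1 call was lost without the library labelled Sws2-ablation (-0.96, adjusted p = 0.0512). In bipolar cells hspe1 (-0.62) was lost without Sws2-ablation (adjusted p = 0.093) or the control (-0.33, adjusted p = 0.135), and hspd1 (-0.99) without the control (-0.49, adjusted p = 0.0539). In amacrine cells both were lower (-1.13 and -1.18), hspd1 at -0.55 without the control. In cycling progenitors hspd1 was not called (0.34), and hspe1 (0.47, adjusted p = 0.0389) was lost without either ablation library (adjusted p = 0.0833 and 0.0837). For hspa9 (mortalin), the Hsp70 of the mitochondrial matrix, the cycling call (-0.52) was lost whichever library was left out (adjusted p = 0.0772, 0.12 and 0.345), and neurogenic precursors were at -1.50.

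J-domain proteins of classes A and B are the general partners of cytosolic Hsp70. The class B gene dnajb1b, itself a heat shock gene, had 1262, 960 and 1431 CPM in cycling progenitors of Lws2-ablation, Sws2-ablation and control, against 3994, 2930 and 3777 CPM in resting glia. It was lower in all 5 classes, by -1.06 ± 0.20 in bipolar cells to -2.33 ± 0.21 in amacrine cells, and no call was lost without 1 library. Its relative dnajb4 had 3.34, 0.671 and 3.15 CPM in cycling progenitors, against 55.5, 35.2 and 28.9 CPM in resting glia (-3.93 ± 0.27), and the differences narrowed from neurogenic precursors (-3.68 ± 0.40) over photoreceptor lineage (-2.56 ± 0.29) and bipolar cells (-1.81 ± 0.29) to amacrine cells (-0.84 ± 0.28). That last call was lost without Lws2-ablation (-0.53, adjusted p = 0.421) or Sws2-ablation (-0.74, adjusted p = 0.0572). The ER gene dnajb11, which works with BiP, was higher in cycling progenitors at 28.8, 16.8 and 27.9 CPM against 16.4, 11.8 and 9.82 CPM (1.18 ± 0.26). Its calls in neurogenic precursors (1.2 ± 0.32) and amacrine cells (1.12 ± 0.33) were lost without Lws2-ablation (1.21 and 0.81, adjusted p = 0.0725 and 0.351). The class A gene dnaja2b was higher in all 5 classes, with 206, 125 and 158 CPM in bipolar cells against 50.1, 34.5 and 55.1 CPM in resting glia (1.48 ± 0.19), and these calls held without any 1 library. The ER membrane gene dnajb12a was lower in all 5 (-1.05 to -0.77) but lost its call without Lws2-ablation in neurogenic precursors (-0.67, adjusted p = 0.22) and bipolar cells (-0.91, adjusted p = 0.0738) and without any 1 library in amacrine cells (adjusted p = 0.116, 0.111 and 0.0599).

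Class C J-domain proteins each serve a special task. Of 21 tested, 7 were higher and 5 lower in cycling progenitors (background 28.2% and 38.6%), 4 and 5 in photoreceptor lineage (24.5% and 29.4%), 4 and 5 in bipolar cells (22.7% and 29.8%) and 5 and 4 in amacrine cells (22.5% and 29.7%). In neurogenic precursors 0 were higher and 6 lower (18.2% and 29.3%). The share lower thus ran from 19.0% in amacrine cells to 28.6% in neurogenic precursors, below the background in each class. The share higher was furthest from it in neurogenic precursors. Higher in cycling progenitors were dnajc9 (a histone H3-H4 chaperone in humans), dnajc21 (assembly of the large ribosomal subunit), dnajc2 (nascent chains on ribosomes), dnajc8 and dnajc17 (splicing), dnajc11a (mitochondrial membranes) and dnajc19 (mitochondrial import). The largest difference was that of dnajc9, with 119, 109 and 109 CPM in cycling progenitors of Lws2-ablation, Sws2-ablation and control, against 18.2, 18.1 and 8.57 CPM in resting glia (3.24 ± 0.20, adjusted p = 9.21e-13). For dnajc21 the levels were 17.4, 12.3 and 21.6 CPM against 2.63, 3.74 and 6.61 CPM (2.32 ± 0.28), and for dnajc2 17.4, 15.2 and 20.9 CPM against 4.09, 4.48 and 8.57 CPM (1.91 ± 0.29). In each, all 3 libraries were higher in cycling progenitors. The rest came to 1.05 ± 0.25 (dnajc17), 1.00 ± 0.20 (dnajc11a), 0.96 ± 0.15 (dnajc8) and 0.64 (dnajc19). In photoreceptor lineage dnajc9 was lower (-0.87), a call lost without Lws2-ablation (-0.89, adjusted p = 0.0681) or Sws2-ablation (-0.69, adjusted p = 0.134). In amacrine cells dnajc2 (1.05 ± 0.41) was lost without Lws2-ablation (0.17, adjusted p = 0.887) or Sws2-ablation (1.08, adjusted p = 0.0866) and came to 1.67 without the control.

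Among the class C genes higher in neuronal classes were dnajc6 and copies of dnajc5. Auxilin, coded by dnajc6, strips clathrin from vesicles, and had 50.4, 60.6 and 73.6 CPM in amacrine cells of Lws2-ablation, Sws2-ablation and control, against 3.24, 2.04 and 2.54 CPM in resting glia (3.88 ± 0.32). It was also higher in photoreceptor lineage (3.38 ± 0.29) and bipolar cells (3.01 ± 0.34), and not called in cycling (-0.75) or neurogenic cells (-0.55). The cysteine string proteins, which guard the fusion machinery of synaptic vesicles, differed by copy. For dnajc5aa amacrine cells had the most, 269, 217 and 342 CPM, against 46.0, 36.1 and 37.2 CPM in resting glia (2.24 ± 0.18), and bipolar cells followed (1.38 ± 0.17). For dnajc5ab the photoreceptor lineage had the most, 169, 139 and 128 CPM, against 20.2, 17.2 and 24.2 CPM in resting glia (2.76 ± 0.19), then bipolar (1.98 ± 0.20) and amacrine cells (1.38 ± 0.21). The third copy, dnajc5ga, was higher in photoreceptor lineage (0.82 ± 0.22) and bipolar cells (1.07 ± 0.23). Not called were dnajc5aa in photoreceptor lineage (0.39) and dnajc5ga in amacrine cells (0.29), and the fourth copy, dnajc5gb, was not tested. The order of the copies among the neuronal classes was not tested directly. In cycling progenitors dnajc5aa was lower than in resting glia (-1.38 ± 0.18).

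Some class C members belonged to resting glia. The gene dnajc12, in humans a co-chaperone of the aromatic amino acid hydroxylases, had 1.79, 3.13 and 2.36 CPM in cycling progenitors of Lws2-ablation, Sws2-ablation and control, against 28.5, 33.3 and 14.3 CPM in resting glia (-3.24 ± 0.28). In bipolar cells 2 UMIs were seen, a ratio of 0.0330 (0.00399 to 0.120). For dnajc4 the levels were 13.3, 11.2 and 9.05 CPM in cycling progenitors, against 74.5, 54.8 and 36.5 CPM in resting glia (-2.01 ± 0.19), and it was lower in the other 4 classes, in amacrine cells (-1.61) with loss of the call without Lws2-ablation (-0.91, adjusted p = 0.0633). The perlecan gene hspg2, no chaperone, had 1.24, 1.23 and 0.394 CPM against 30.5, 25.1 and 19.6 CPM (-4.19 ± 0.38). In neurogenic precursors 3 UMIs of hspg2 were seen, in bipolar cells 1 and in amacrine cells 2, at ratios of 0.0421 (0.00867 to 0.123), 0.0158 (0.000399 to 0.0879) and 0.0331 (0.00400 to 0.120).

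Of 53 further genes of protein folding that are no members (Hsf factors, Hsp90 co-chaperones, the TRiC chaperonin, ER folding and stress genes), 42 were tested. In cycling progenitors 18 were higher and 10 lower, in neurogenic precursors 12 and 13, in photoreceptor lineage 11 and 11, in bipolar cells 4 and 17 and in amacrine cells 5 and 16, beside the background shares above. The 8 TRiC genes, whose ring folds actin and tubulin, were all higher in cycling progenitors, 6 in neurogenic precursors, 4 in photoreceptor lineage and none in bipolar or amacrine cells, and none was lower in any class. Lower in all 5 classes, as hsp70.1, hsp70.2 and hsp70l were, was serpinh1a, the collagen chaperone Hsp47 (-3.02 in cycling progenitors). The same held for the Hsp90 co-chaperone genes fkbp5 (-2.44) and ahsa1a (-1.96). So it did for xbp1 (-1.89), atf6 (-1.43), sil1 (-1.29), atf4b (-0.70) and hsbp1b (-0.69), where the background over all genes was 14.7%. These calls too rest on the fit after TMM. In plain shares hsbp1b had 278 and 239 CPM in amacrine cells of Sws2-ablation and control, against 262 and 196 CPM in resting glia. For atf6 these values were 90.9 and 127 CPM against 85.8 and 126 CPM. In Lws2-ablation both genes were lower in amacrine cells. Higher in all 5 was sdf2l1 (background 3.74%). The transcript of hsf1 itself was called in no class, at -0.29, -0.85, 0.69, 0.54 and 0.58 from cycling progenitors to amacrine cells.

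The next question was whether members differed between the libraries within a class. With 1 library per condition there is no test, so ratios of CPM are given with 95% Poisson intervals that cover counting error only. A member was counted when its log2 ratio, with 1 CPM added, was 1 or more in either direction, among genes with a mean of at least 10 CPM. In resting glia 6 of 50 members were past 2-fold higher in Lws2-ablation than in the control and 2 lower, where the background was 4.85% and 3.35% of genes. In the library labelled Sws2-ablation 6 of 50 were past 2-fold higher and 4 lower than in the control (4.00% and 6.54%), and in Lws2-ablation 2 of 48 were higher than in Sws2-ablation and 0 lower (2.34% and 0.489%). In cycling progenitors 0 of 45 were higher and 1 lower in Lws2-ablation than in the control (1.88% and 1.00%), 1 of 43 higher and 4 lower in Sws2-ablation than in the control (1.69% and 2.69%), and 6 of 44 higher and 0 lower in Lws2-ablation than in Sws2-ablation (1.70% and 0.974%). Comparisons with the control share that library. On TMM totals, which moved the median of all genes to -0.26 in resting glia of both ablation libraries over the control, the split became 2 higher and 7 lower of 51 members for Lws2-ablation and 2 and 8 of 50 for Sws2-ablation. The median log2 ratio of the members moved from 0.05 to -0.24 for Lws2-ablation and from -0.20 to -0.38 for Sws2-ablation. No member past 2-fold on plain totals changed sign on TMM totals. Over all genes on these totals, 178 were higher and 581 lower of 6892 for Lws2-ablation, and 183 and 727 of 6899 for Sws2-ablation.

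**Figure D3:**
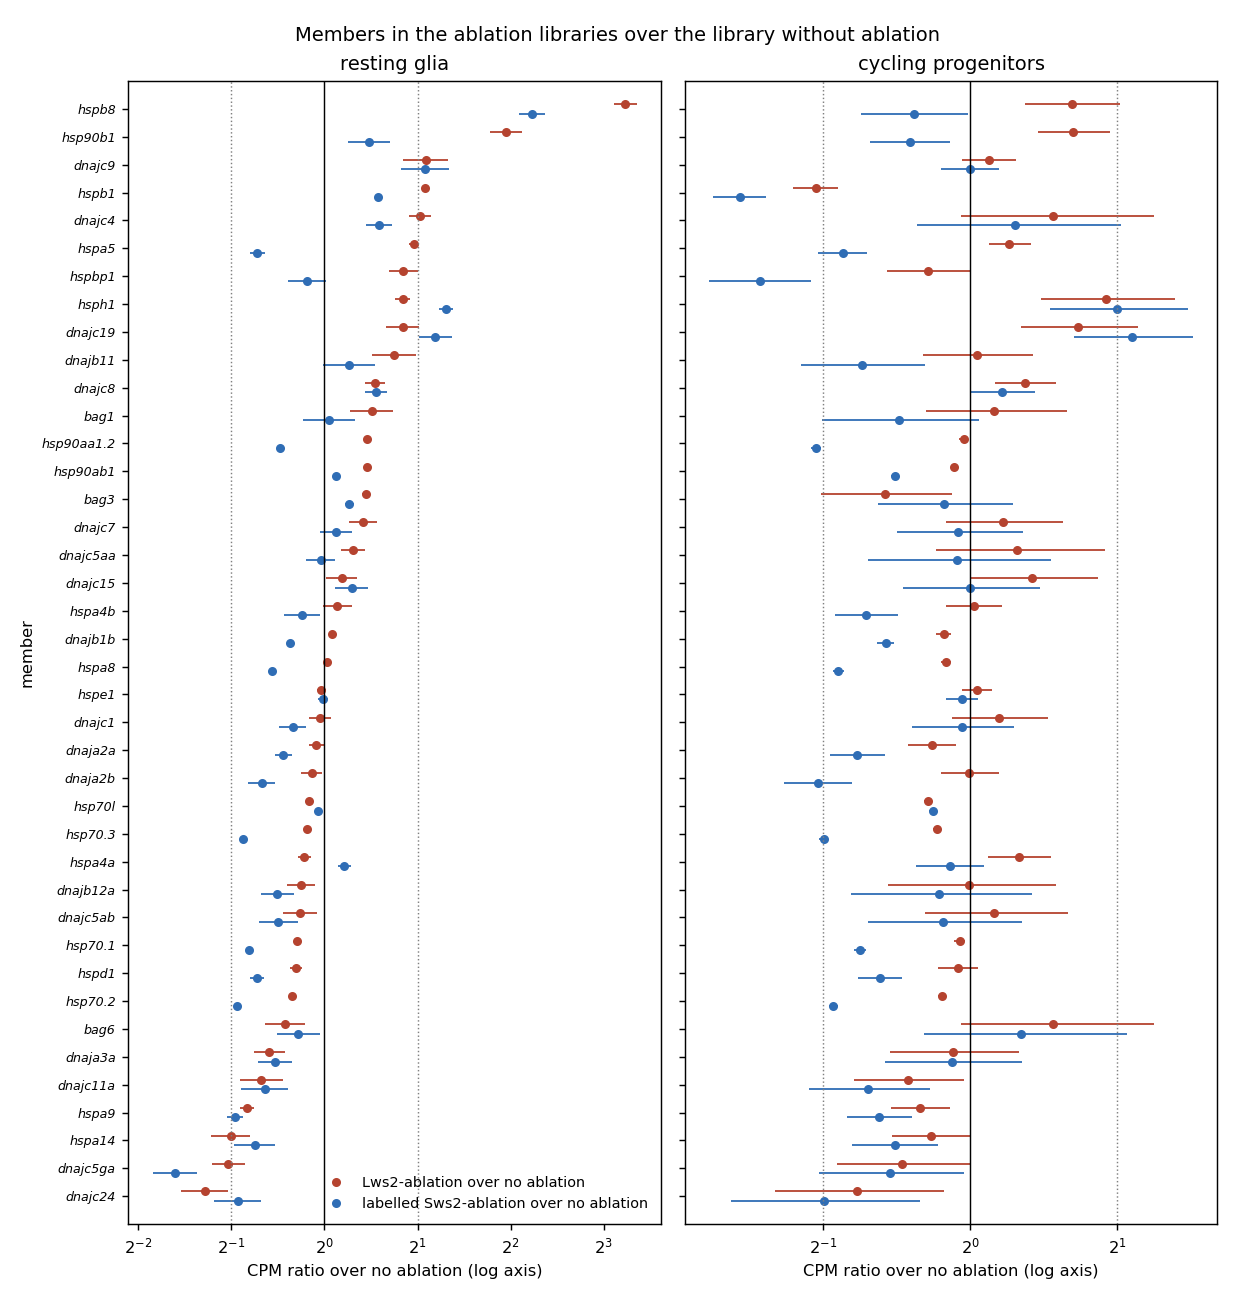
CPM ratio of Lws2-ablation (red) and the library labelled Sws2-ablation (blue) over the no ablation control in resting glia (left) and cycling progenitors (right), log axis, for 40 members with at least 10 CPM in all 4 comparisons. Bars are 95% Poisson intervals and dotted lines mark 2-fold. Most members lie between the dotted lines; hspb8 in resting glia stands apart at 9.39 and 4.68, and hspb1 lies above 1 in resting glia and below 1 in cycling progenitors.

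The member that differed most was hspb8. In resting glia it had 207 CPM in Lws2-ablation and 103 CPM in Sws2-ablation, against 22.0 CPM in the control, ratios of 9.39 (8.63 to 10.2) and 4.68 (4.26 to 5.15). Between the ablation libraries the ratio was 2.0 (1.89 to 2.13). In cycling progenitors the same libraries had 56.5 and 26.8 CPM against 35.03 CPM, neither past 2-fold of the control. Another small heat shock gene, hspb1, had 982 and 692 CPM in resting glia of the ablation libraries, against 463 CPM in the control, a ratio of 2.12 (2.07 to 2.17) for Lws2-ablation. In cycling progenitors it was at 89.4 and 62.5 CPM, against 185 CPM in the control, ratios of 0.482 (0.434 to 0.536) and 0.337 (0.298 to 0.382). The third, hspb6, was lower in both ablation libraries in resting glia, 18.2 and 13.6 CPM against 45.2 CPM (0.402, 0.357 to 0.453, and 0.30, 0.258 to 0.349). The small heat shock genes therefore differed in opposite directions between libraries in the summed resting glia. Their co-chaperone bag3 had 395 and 350 CPM against 290 CPM in resting glia and was not past 2-fold.

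The ER genes hsp90b1 and hspa5 differed between Lws2-ablation and Sws2-ablation in resting glia, while dnajb11, also of the ER, was at a ratio of 1.39 (1.15 to 1.68). In resting glia hsp90b1 had 52.2 CPM in Lws2-ablation, against 18.8 CPM in Sws2-ablation, a ratio of 2.78 (2.43 to 3.18), and 13.5 CPM in the control (3.87, 3.44 to 4.37). For hspa5 the values were 358 CPM in Lws2-ablation, against 112 CPM in Sws2-ablation, a ratio of 3.21 (3.04 to 3.39), and 2.2 (2.04 to 2.37) in cycling progenitors. The control lay between them with 184 CPM in resting glia. Of the Hsp110 genes hsph1 was past 2-fold in Sws2-ablation alone, 211 against 85.7 CPM (2.47, 2.34 to 2.60), and the Hsp70 relative hspa12a was lower there, 49.1 against 122 CPM (0.403, 0.371 to 0.436). Other members past 2-fold over the control in resting glia were dnajb6a (2.61, 2.19 to 3.11), dnajc9, dnajc4 and, lower, dnajc24 (0.409, 0.343 to 0.486) in Lws2-ablation, and dnajb6a, dnajc9, dnajc19, dnajc12 (2.33, 2.03 to 2.66) and, lower, dnajc5ga (0.328, 0.278 to 0.386) and bag4 (0.460, 0.365 to 0.574) in Sws2-ablation. On TMM totals none of these higher ones stayed past 2-fold, at log2 ratios of 0.70 to 0.99 in Lws2-ablation and 0.84 to 0.996 in Sws2-ablation. The lower ones, dnajc24, dnajc5ga and bag4, did. In cycling progenitors hspbp1 (0.371, 0.292 to 0.472), hsp90aa1.2 and dnaja2b were lower and dnajc19 (2.14, 1.63 to 2.86) higher in Sws2-ablation than in the control. Of these, hsp90aa1.2 and dnaja2b came to log2 ratios of -0.82 and -0.80 on TMM totals. The 6 members past 2-fold higher in cycling progenitors of Lws2-ablation than of Sws2-ablation were hsp90aa1.2, dnaja2b, hspb8, hsp90b1, hspbp1 (2.21, 1.86 to 2.64) and hspa5, of which hspa5 alone stayed past 2-fold on TMM totals and none without mitochondrial and ribosomal genes in the totals. None of the 4 inducible Hsp70 genes was past 2-fold in these comparisons on plain totals, though some came close. In resting glia of Sws2-ablation over the control hsp70.1, hsp70.2 and hsp70.3 stood at 0.572, 0.521 and 0.546, and hsp70l at 0.954. In cycling progenitors the same 4 ratios were 0.595, 0.524, 0.501 and 0.839 in that order. In resting glia of Lws2-ablation over the control they lay between 0.783 and 0.894. Beside these values, fosab stood at 8537 and 6282 CPM in resting glia of the ablation libraries, against 10180 CPM in the control, and the median mitochondrial share of UMIs at 1.87% and 1.61%, against 1.09%. Their part in the result was not tested.

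Within the resting glia of 1 library, cells rich in inducible Hsp70 were set against cells poor in it, to see which other members vary with these genes from cell to cell. Cells with at least 5 inducible Hsp70 UMIs after thinning numbered 2702 in Lws2-ablation, 2072 in Sws2-ablation and 5360 in the control, against 100, 140 and 71 cells with at most 1. Here CPM are scaled to UMIs other than inducible Hsp70. Of the members at 10 CPM or more, 17 of 43 were past 2-fold higher and 2 lower in the rich cells of Lws2-ablation (background 29.2% and 3.30%), 15 of 40 and 4 in Sws2-ablation (38.1% and 2.78%) and 11 of 42 and 1 in the control (7.06% and 7.67%). In the ablation libraries many genes that are no members thus differed between these cells too, mostly higher in the rich cells. The ribosomal share was 17.8%, 24.0% and 15.9% in rich cells of Lws2-ablation, Sws2-ablation and control, against 35.1%, 40.7% and 19.7% in poor cells. The poor cells gave fewer UMIs, with medians of 6650.5, 5848.5 and 4650.5 UMIs in rich cells of Lws2-ablation, Sws2-ablation and control against 3383, 2794.5 and 2877 in poor cells. Their mitochondrial share was 1.80%, 1.49% and 1.09% in rich cells against 6.74%, 5.91% and 0.444%, and immediate early genes took, of the UMIs other than inducible Hsp70, 4.04%, 3.45% and 4.55% against 0.316%, 0.217% and 1.02%. Their part in the result was not tested.

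A comparison of the highest with the lowest quartile of resting glia by inducible Hsp70, added after the data were seen, used 735, 595 and 1395 cells on each side. It gave 11 members of 47 higher and 0 lower in Lws2-ablation (background 5.45% and 1.69%), 13 of 45 and 2 in Sws2-ablation (12.3% and 1.11%) and 6 of 44 and 0 in the control (0.653% and 0.669%). The median log2 ratio of the members was 0.30, 0.52 and 0.22, beside 0.13, 0.34 and -0.08 over all genes. Immediate early genes took 5.21%, 4.56% and 5.52% of UMIs in the highest quartile, against 2.0%, 1.15% and 3.03% in the lowest. The share of members past 2-fold higher, and their median, thus lay above the background in all 3 libraries. In the control, where few other genes differed, this share rests on 6 of 44 members. In Lws2-ablation, Sws2-ablation and control the ribosomal share was 13.9%, 19.96% and 13.6% in the highest quartile, against 25.5%, 34.2% and 17.8% in the lowest. Median resting glia markers per 10000 UMIs were 341, 238 and 376 against 195, 182 and 406. Median UMIs were 6109, 5072 and 4536 against 4266, 3344 and 3811. What these differences contribute was not tested.

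**Figure D4:**
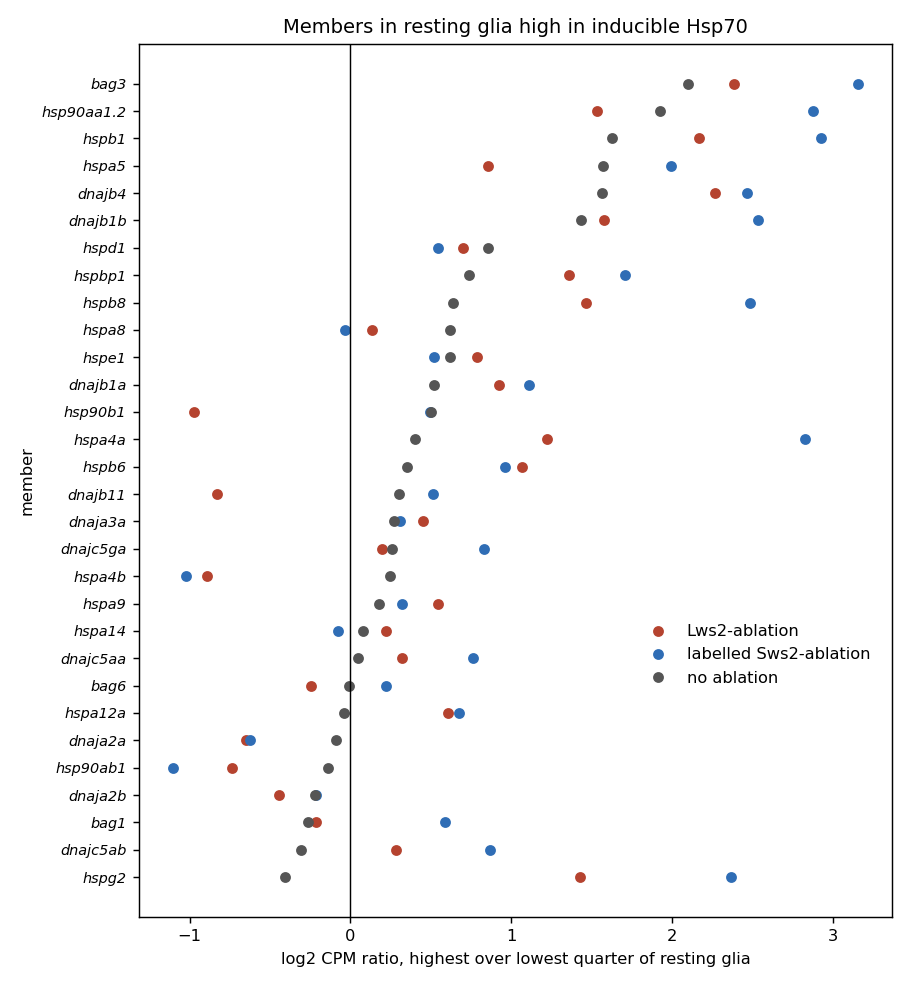
Log2 CPM ratio of the highest over the lowest quartile of resting glia by inducible Hsp70 share (red, Lws2-ablation; blue, library labelled Sws2-ablation; grey, no ablation control). Shown are the 30 members named for their role that had a mean of at least 10 CPM in each library. The genes bag3, hsp90aa1.2, hspb1, dnajb4 and dnajb1b lie above 1 in each library, while hsp90ab1 lies below 0 in each.

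Members past 2-fold higher in the highest quartile of each library were bag3, hsp90aa1.2, hspb1, dnajb1b and dnajb4. For bag3 the highest quartile had 604, 557 and 464 CPM in Lws2-ablation, Sws2-ablation and control, against 115, 61.4 and 107 CPM in the lowest (log2 ratios 2.38, 3.16 and 2.1). For hsp90aa1.2 the values were 12242, 7229 and 10275 CPM against 4224, 980.3 and 2702 CPM, and for dnajb1b 5778, 4923 and 5536 CPM against 1932, 846 and 2048 CPM. The same was seen for hspb1 with 1791, 1253 and 701 CPM against 397, 164 and 226 CPM, and for dnajb4 at log2 ratios of 2.27, 2.47 and 1.56. Not past 2-fold higher in any library was hspa8, at 0.14, -0.03 and 0.62. The gene hsp90ab1 was lower in the highest quartile of each library, at -0.74, -1.10 and -0.14. The BiP gene hspa5 was past 2-fold in Sws2-ablation and the control (1.99 and 1.57) but not in Lws2-ablation (0.85). The genes hspb8 (1.47, 2.48 and 0.64), hsph1 (1.51, 2.58 and 0.87) and hspa4a (1.22, 2.83 and 0.40) passed 2-fold in the ablation libraries alone, which was not tested as a difference. Across single resting glia the share of inducible Hsp70 and that of immediate early genes among the other UMIs had Spearman correlations of 0.707, 0.810 and 0.614 over 2940, 2380 and 5582 cells with at least 1000 UMIs, given as a description, since both come from the same cells and libraries.

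The 19 members that could not be fitted for low counts had 27 to 647 UMIs each over the 3 libraries. They were bag2, bag5, dnajb9b, dnajb12b, dnajb13, dnajc3b, dnajc5gb, dnajc11b, dnajc14, dnajc16, dnajc16l, dnajc25, dnajc28, dnajc30b, hsp90aa1.1, hspa12b, hspa13, hspb15 and hspbap1, and their differences between classes were not tested. Among them hspb15 had 2, 0 and 0 UMIs in cycling progenitors of Lws2-ablation, Sws2-ablation and control, against 29, 20 and 76 UMIs in resting glia, lower in each library.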

How the data were processed

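Single-cell 3′ libraries of sorted larval zebrafish retina (1 per condition) were analysed from the filtered matrices. The deposited matrices hold raw UMI counts that the authors made with Cell Ranger, version 2.1.1 in the submitters' processing notes and 3.0.2 in the file header, on GRCz11. Each library was read through its own file, and no column of another series was present.

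Cells were kept by the limits the study states: 200 genes as the minimum, a maximum of 4500 genes and 35% mitochondrial UMIs for Lws2-ablation, of 4000 and 30% for Sws2-ablation and of 3500 and 20% for the control. Depth was 74215043, 51943376 and 41397211 UMIs. Cell classes were rebuilt from marker lists, with gates set after values were seen, since no annotation of cells was used here; these classes may differ from those of the study. No member served as a marker. Members, lists and tests were chosen with earlier results of these data known. Immediate early genes and other folding genes were listed by name. Members were named for their role, plus the 5 highest and 5 lowest in each comparison; other members are named for a call or a count and were chosen after their values were seen.

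Sums of at least 20 cells per library and class were fitted in edgeR 4.0.16 (R 4.3.3, limma 3.58.1) with filterByExpr at a minimum count of 10, TMM, glmQLFit and glmQLFTest, library and class as terms and 10 residual degrees of freedom. The block takes out differences between libraries. The p-values thus rest on how far class differences vary from library to library, pooled over the classes. The libraries are not replicates of a condition. Ratios, exact binomial and Poisson intervals (95%) and correlations used Python 3.11.15 with numpy 2.4.6, pandas 2.3.3 and scipy 1.17.1, Scrublet came from scanpy 1.11.5 and plots from matplotlib 3.10.9. UMI intervals and floors (3 counts) cover counting error only. Alternatives were DESeq2 1.42.0, other filters, gates, scales and thinning depths and leaving out each library. The fit was tested on simulated counts. No sequences are printed, since none were used here.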

Additional observations from a re-analysis of the deposited data

Results flagged for a closer look

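The small heat shock gene hspb1 differed between Lws2-ablation and the no ablation control in opposite directions in 2 classes. Its log2 CPM ratio, with 1 CPM added, was 1.08 in resting glia (982 CPM in Lws2-ablation against 463 CPM in the control) and -1.04 in cycling progenitors (89.4 CPM against 185 CPM). On TMM totals the values were 0.77 and -0.95. With 1 library per condition the difference between the classes was not tested.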

How the results depend on the processing

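No member called in the class comparison changed direction under any alternative run. Of 144 named calls, 136 were kept with DESeq2 and 8 lost, 109 kept and 35 lost without library as a block, and 125 kept and 19 lost on plain totals, an alternative added after the data were seen. Leaving out 1 library gave between 31 and 42 member calls in cycling progenitors, 22 and 32 in neurogenic precursors, 25 and 35 in photoreceptor lineage, 28 and 35 in bipolar cells and 27 and 40 in amacrine cells. A minimum count of 50 gave 27 member calls in cycling progenitors against 41, since fewer genes were tested. The share of all genes called in these runs is not given here, so these counts of member calls stand without a background. No paired analysis was possible because each condition has 1 library; library was the block between classes.

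Counts of members past 2-fold moved most. For Lws2-ablation over the control in resting glia, 8 became 3 with 10 CPM added or a mean of at least 50 CPM, 13 at 1 UMI or more and 5 with looser gates. Over all genes, 315 higher and 218 lower of 6501 became 154 and 107 with 10 CPM added. They became 84 and 97 of 2116 at 50 CPM, 1086 and 320 of 21395 at 1 UMI and 320 and 245 of 6497 with looser gates. For Sws2-ablation over the control 10 became 5 with 10 CPM added and 3 at 50 CPM, and for Lws2-ablation over Sws2-ablation 2 became 1 at 50 CPM and 4 without the members in the total (added later). Of all genes, 115 were higher and 203 lower of 6343 for Sws2-ablation over the control with 10 CPM added, and 85 and 180 of 2023 at 50 CPM. For Lws2-ablation over Sws2-ablation they were 38 and 9 of 2018 at 50 CPM and 177 and 32 of 6741 without the members. In cycling progenitors 1 for Lws2-ablation over the control became 0 with 10 CPM added or looser gates and 2 at 1 UMI, and 5 for Sws2-ablation over the control became 3 with 10 CPM added or at 50 CPM and 10 at 1 UMI. All genes there gave 42 higher and 22 lower of 5475 for Lws2-ablation with 10 CPM added. Looser gates gave 108 and 51 of 5262, and 1 UMI 927 and 230 of 19439. For Sws2-ablation over the control they gave 17 and 39 of 1538 at 50 CPM and 789 and 568 of 17887 at 1 UMI. For Lws2-ablation over Sws2-ablation 6 became 1 on TMM totals, 0 without mitochondrial and ribosomal genes, 2 with 10 CPM added or stricter gates and 11 at 1 UMI. These 6 members lay between 1.00 and 1.13 on the log2 scale, close to the limit. In this comparison 83 of all genes were higher and 94 lower of 6468 on TMM totals. Without mitochondrial and ribosomal genes they were 89 and 128 of 7191, and with 10 CPM added 28 and 26 of 5341. Stricter gates gave 64 and 76 of 5539, and 1 UMI 376 and 151 of 20072.

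The share of inducible Hsp70 UMIs in the richest 5% of resting glia was 10.7%, 12.1% and 10.6% thinned to 2000 UMIs and 12.5%, 13.4% and 13.5% not thinned (Lws2-ablation, Sws2-ablation, control), 10.6% and 11.9% with stricter and 11.4% and 12.9% with looser gates in the ablation libraries, and 10.9% in the control with high Scrublet scores removed. Shares of cells with inducible Hsp70 were 99.7%, 99.1% and 99.9% of resting glia thinned to 2000 UMIs, 99.97%, 99.4% and 99.9% not thinned, 89.3%, 83.0% and 93.4% at 10 UMIs or more, and 98.6% in Sws2-ablation with stricter gates. In cycling progenitors they were 98.0% and 96.8% in the ablation libraries at 2000 UMIs, 100.0%, 99.8% and 100.0% not thinned, 70.4%, 52.61% and 79.4% at 10 UMIs or more, and 100.0% in the control over all barcodes. Quartiles in place of fixed limits gave 11 members higher against 17 in Lws2-ablation and 6 against 11 in the control. The cause of these shifts was not tested.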
